A study of Homo sapiens with 6 samples.

Results

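The genes described here are 10 parts of the cellular oxygen-sensing pathway: the hypoxia-inducible factor (HIF) subunits HIF1A, EPAS1 and ARNT, the von Hippel-Lindau gene VHL, the hydroxylases EGLN1, EGLN2, EGLN3 and HIF1AN, and the modulators CITED2 and KDM3A. They were chosen by name, by matching each symbol to its Ensembl identifier, and all 10 were found among the 61496 features of the deposited tables. RNA sequencing was performed on U251, an established human glioma cell line, in 3 libraries of untreated control cells and 3 libraries of cells exposed to sevoflurane (Sev) gas for 2 h. Both groups were grown in the same serum-containing medium, and the labels name no transgene or deletion in either. The deposited protocol names concentrations of 1.7%, of 3.4% and of 5.1% and assigns none to a library. The study describes the sequenced Sev cells as having received the highest of them. Sev libraries of unequal concentration would not count as replicates, which the labels leave unsettled. The labels do not say whether replicates were separate cultures, so the p-values measure the spread between these libraries, which may be technical.

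HIF is a transcription factor made of an oxygen-labile alpha subunit (HIF1A or EPAS1) and a constant partner (ARNT). With oxygen, the EGLN prolyl hydroxylases mark the alpha subunit for VHL, which recognizes it for ubiquitination and degradation, and the asparaginyl hydroxylase HIF1AN blocks its contact with the coactivators CREBBP and EP300. Because much of this control acts on protein, mRNA levels describe the supply of the components and not the activity of the pathway. Several of the components, among them EGLN3, EGLN1, CITED2 and KDM3A, are themselves known to be induced by HIF in hypoxia, and glioma is a tissue in which the pathway has been studied widely.

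HIF binds short DNA elements whose core reads ACGTG or GCGTG. Both cores were searched on both strands in the 250 bases before each RefSeq gene start (GRCh38.p14), and 9 of the 10 genes had at least 1 such window. At least 1 core lay in the windows of 6 of them (HIF1A, EPAS1, EGLN1, EGLN2, CITED2 and KDM3A). Counted per gene in the same way, 47.4% of 27305 genes in the RefSeq table held either core in at least 1 window, as did 43.2% of the 35116 single windows. The sites shown are the match in each of these genes, or for CITED2 the match before its outermost start. They are printed 5′ to 3′ on the gene's strand with the matched letters in capitals, and CACGTG holds the first core on both strands. Windows were placed by RefSeq starts, whereas the gene spans given below come from GENCODE. The printed sites of EPAS1, EGLN1, EGLN2 and KDM3A lie inside those spans, and those of HIF1A and CITED2 lie before them. A match is a description of the letters and not a binding site.
CITED2, chr6:139374784-139374813, minus strand: cagcctctgcagCACGTGccgcgggcggcg
EGLN2, chr19:40799130-40799159, plus strand: gcggggcgcggtCACGTGcccaccgggcga
EGLN1, chr1:231422288-231422312, minus strand: gggccgtggtgtACGTGcagagcgc
EPAS1, chr2:46297278-46297306, plus strand: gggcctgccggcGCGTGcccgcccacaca
KDM3A, chr2:86441333-86441361, plus strand: ccgggaggctgtGCGTGtcttgtgagagc
HIF1A, chr14:61695297-61695325, plus strand: tggctgagagcgGCGTGggctggggtggg

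The libraries held between 38624292 and 46318311 counts, and the 10 genes together took 0.115% to 0.136% of them. Counts were normalised by edgeR's TMM method and are given as CPM, counts scaled to a common library size. TMM factors ran from 0.918 to 0.988 in the Sev libraries and from 1.03 to 1.08 in the control libraries. Scaling by library size alone therefore lowered the median log2 fold change of all tested features by 0.14. It also moved the share of higher genes among all calls from 50.7% to 38.3%. Of 8 markers of glial lines, 6 had at least 1 FPKM (deposited values per length and depth) in every control library, while AQP4 and OLIG2 did not. The summed level of the 8 was 1206 to 1415 FPKM in control and 1215 to 1332 FPKM in Sev libraries, but single markers differed without overlap. SOX2 (93.8 to 102 against 51.9 to 54.3 FPKM), S100B (8.46 to 13.7 against 4.26 to 4.49 FPKM) and OLIG2 (0.598 to 0.644 against 0.101 to 0.176 FPKM) were lower in Sev libraries, as was AQP4 at levels near 0, and CD44 was higher (31.7 to 34.1 against 56.7 to 60.9 FPKM). VIM, NES and GFAP overlapped, and the part of these differences in the results was not tested. The 10 markers of blood, epithelial, endothelial and liver cells summed to 1.04 to 1.42 FPKM in control and 0.987 to 1.19 FPKM in Sev libraries, and CD3E was at 0 in all 6. In bulk RNA of this kind, fewer cells expressing a gene and less RNA per cell cannot be told apart.

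The 10 mRNAs did not move together, and shares near those of all features were called in each direction. CITED2, EPAS1 and VHL rose, and EGLN3, ARNT and KDM3A fell, while HIF1A, EGLN1, EGLN2 and HIF1AN did not pass an adjusted p-value of 0.05 in edgeR's quasi-likelihood test. All 10 genes passed the expression filter. Of them, 3 were called higher (30%, beside 22.1% of all 27514 tested features) and 3 lower (30%, beside 21.5%), together 60% beside 43.7%. The lower calls numbered 1 without control replicate 3 (10%, beside 15.6% of all features). They numbered 2 without control replicate 2 (20%, beside 17.8%) or Sev replicate 1 (20%, beside 15.8%). The median log2 fold change was −0.049 for the 10 genes and −0.0056 for all tested features. The study's own rule asks for an absolute log2 fold change above 1 and an unadjusted p below 0.05. It called 0 of the 10 genes higher (11.4% of all tested features) and 1 lower, EGLN3 (12% of all tested features). The groups did not overlap for 7 of the 10 genes, compared with 56.5% of all tested features.

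**Figure D1:**
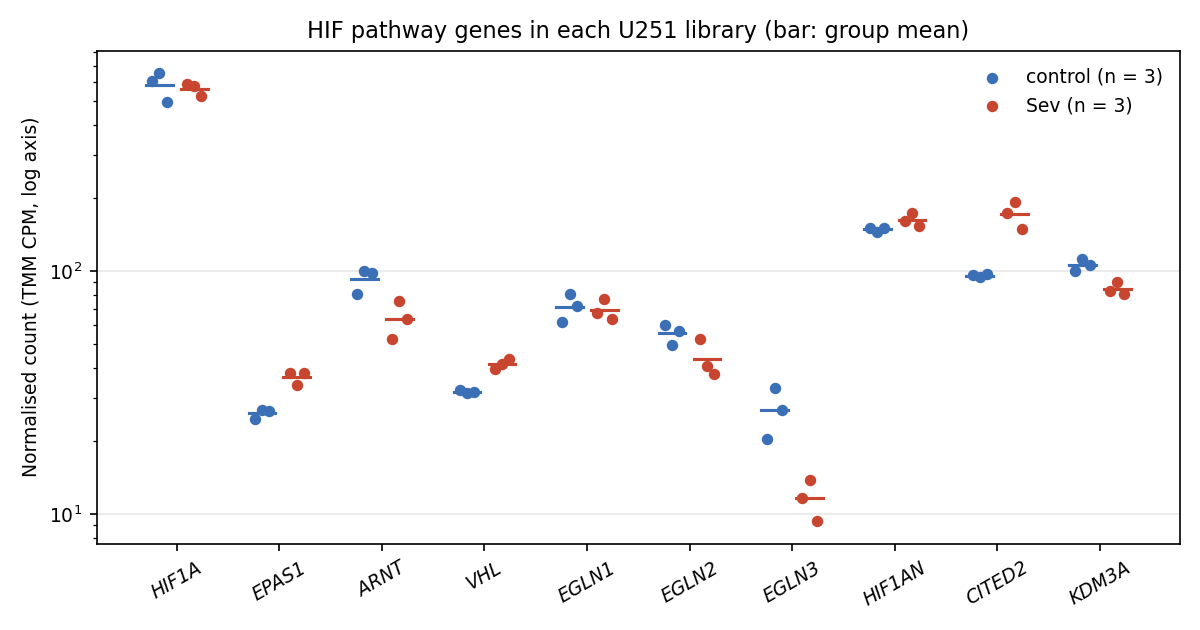
Normalised count (TMM CPM, log axis) of each gene in each of the 3 control and 3 Sev libraries, where points are libraries and short bars are group means. The points of HIF1A, EGLN1 and EGLN2 mix between the groups, and the widest gaps are those of EGLN3 (20.3 to 33.2 against 9.37 to 13.9 CPM) and CITED2 (94.2 to 97.1 against 148 to 193 CPM).

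Of the alpha subunits, HIF1A did not pass the test and the less abundant EPAS1 rose. HIF1A (ENSG00000100644, chromosome 14, 61695513 to 61748259, plus strand, GRCh38) had 608, 652 and 495 CPM in the control libraries and 587, 576 and 527 CPM in the Sev libraries. The groups overlapped, since the lowest library of all was a control. The log2 fold change was −0.055 ± 0.11 (SE, adjusted p = 0.723), with a 95% interval from −0.32 to 0.21, and its sign turned without control replicate 2. The same-strand gene AL137129.1 shares 148 exon bases with HIF1A but had at most 24 counts in a library. EPAS1 (ENSG00000116016, chromosome 2, 46293667 to 46386703, plus strand), which encodes the second alpha subunit, had 24.6, 26.8 and 26.6 CPM in control and 38.2, 34.2 and 38.2 CPM in Sev libraries. Every Sev library was above every control library. EPAS1 was 1.42-fold higher, with a log2 fold change of 0.50 ± 0.093 (SE, adjusted p = 0.0039, edgeR), and it kept its call under all alternatives run, with values down to 0.28 on log2(FPKM + 1) (adjusted p up to 0.0456).

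ARNT, the shared beta subunit (ENSG00000143437, chromosome 1, 150809705 to 150876768, minus strand), fell. It had 80.8, 100.2 and 98.7 CPM in the control libraries and 52.4, 75.2 and 63.3 CPM in the Sev libraries. All Sev libraries lay below the lowest control, although the gap between Sev replicate 2 and control replicate 1 was small. ARNT was 1.47-fold lower, with a log2 fold change of −0.55 ± 0.15 (SE, adjusted p = 0.0176). This call was lost without control replicate 2 (adjusted p = 0.0559), control replicate 3 (adjusted p = 0.0599) or Sev replicate 1 (adjusted p = 0.0541), and over all alternatives the adjusted p ran from 0.00441 to 0.0599. ARNT2, a paralogue able to pair with the alpha subunits, was expressed at 64.5 ± 2.57 CPM (SD, n = 3) in control and 71.8 ± 4.17 CPM (SD, n = 3) in Sev libraries, a log2 fold change of 0.16 that did not pass (adjusted p = 0.16). HIF3A, the remaining alpha subunit gene, had at most 6 counts in any library and was not tested.

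The prolyl hydroxylases gave unlike values. EGLN3 had the largest log2 fold change of the 10 genes in either direction, EGLN1 did not pass the test, and EGLN2 lay between them. EGLN3 (ENSG00000129521, chromosome 14, 33924231 to 34462774, minus strand), the family member known for its strong induction in hypoxia, had 20.3, 33.2 and 26.8 CPM in control and 11.7, 13.9 and 9.37 CPM in Sev libraries. The control libraries varied among themselves, yet the lowest of them was above every Sev library. EGLN3 was 2.3-fold lower, with a log2 fold change of −1.20 ± 0.21 (SE, adjusted p = 0.00309), and it was lower with an adjusted p under 0.05 in every alternative run. On log2(FPKM + 1), where the added 1 compresses weakly expressed genes, its value was −0.88, which ends its call by the study's rule.

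EGLN1 (ENSG00000135766, chromosome 1, 231363751 to 231425044, minus strand), the main oxygen sensor of most cells, had 61.8, 80.4 and 71.9 CPM in control and 67.3, 76.8 and 63.7 CPM in Sev libraries. The values of the groups were intermixed. Its log2 fold change was −0.043 ± 0.12 (SE, adjusted p = 0.796), with a 95% interval from −0.32 to 0.23, and the sign turned without control replicate 2 or Sev replicate 3. EGLN2 (ENSG00000269858, chromosome 19, 40798996 to 40808433, plus strand) had 60.1, 49.7 and 56.8 CPM in control and 52.4, 40.6 and 37.9 CPM in Sev libraries. Only Sev replicate 1 reached into the control range. Its log2 fold change of −0.35 ± 0.14 (SE, 95% interval −0.67 to −0.028) had an adjusted p of 0.0746.

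The value of EGLN2 is uncertain, because the readthrough gene RAB4B-EGLN2 on the same strand shares 2012 of the 6577 exon bases of EGLN2. The readthrough was listed with 152, 209 and 180 counts in the control libraries and with 0, 191 and 1 counts in the Sev libraries, so reads may have been split between both entries in unequal ways. With the readthrough counts added to EGLN2, the log2 fold change was −0.40 with an adjusted p of 0.0369, which makes EGLN2 a called gene. It was also called with library size only (adjusted p = 0.0246), without Sev replicate 1 (adjusted p = 0.0202) and with limma on filtered FPKM, and the adjusted p ran from 0.0202 to 0.197 over all alternatives.

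Summed per length, the prolyl hydroxylase mRNAs reached 20.3, 22.5 and 21.7 FPKM in the control libraries and 17, 16.6 and 15 FPKM in the Sev libraries. FPKM are scaled by library size without TMM, which places Sev lower than TMM does, by 0.14 on the log2 scale for the median feature at the lower pseudocount of 0.1. The make-up of the family does not depend on that scaling, but it does depend on the gene lengths behind the FPKM. EGLN3 held 11.8% to 16.7% of the family in control and 6.70% to 8.40% in Sev libraries, without overlap. EGLN1 held 52.2% ± 3.13 (SD, n = 3) in control and 61.2% ± 3.89 (SD, n = 3) in Sev libraries, and EGLN2 held 33.6% ± 5.57 and 31.4% ± 4.32. The deposited FPKM used a shorter length for EGLN1, relative to its GENCODE 29 exons, than for the other 9 genes: the length implied by counts and FPKM was 0.916 times the exon length for EGLN1 and 1.22 to 1.25 times for the others. With counts divided by GENCODE 29 exon length instead, EGLN1 held 44.7% ± 3.10 in control and 53.8% ± 4.02 in Sev libraries (SD, n = 3), and in control replicate 1 it was below EGLN2 (41.7% and 44.8%). EGLN3 then held 13.5% to 19.5% in control and 8.05% to 10.1% in Sev libraries, still without overlap. P4HTM, a membrane-bound relative of these enzymes, was at 55.5 ± 10.8 CPM in control and 55.0 ± 5.62 CPM in Sev libraries (SD, n = 3). Its log2 fold change of −0.015 changed sign in 4 alternatives and was never called.

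**Figure D2:**
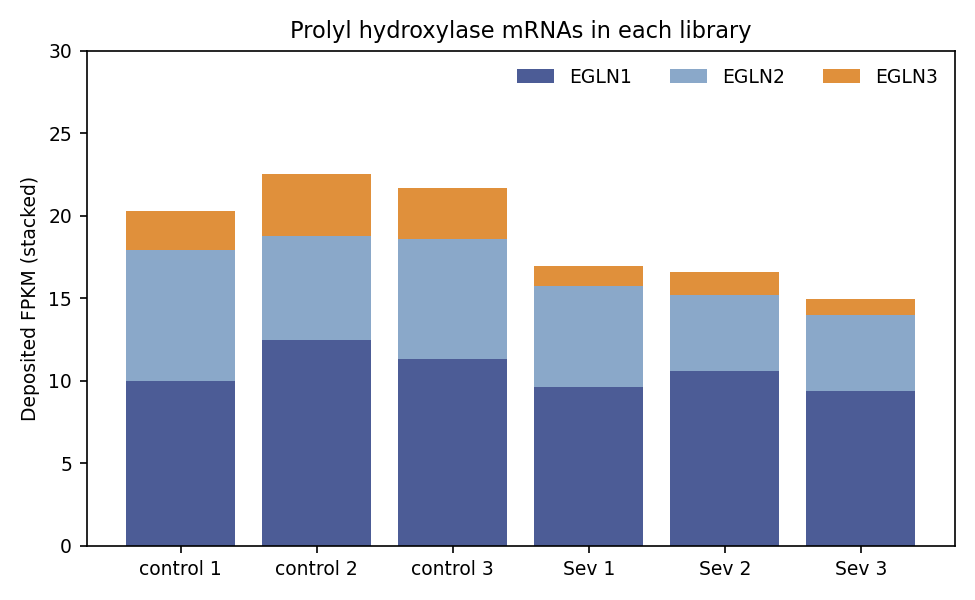
Deposited FPKM of EGLN1, EGLN2 and EGLN3 stacked for each of the 6 libraries, with bars starting at 0 and EGLN1 on the shorter length of the deposited values. The stacks are lower in the 3 Sev libraries (15 to 17 against 20.3 to 22.5 FPKM), and the top segment, EGLN3, is the thinnest of the 3 in every library.

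HIF1AN and VHL act on the alpha subunits beside the prolyl hydroxylases. VHL (ENSG00000134086, chromosome 3, 10141008 to 10152220, plus strand), the substrate receptor of the ubiquitin ligase, had 32.5, 31.5 and 31.7 CPM in control and 39.7, 41.6 and 43.5 CPM in Sev libraries. The control libraries were nearly equal and all Sev libraries were above them. VHL was 1.30-fold higher, with a log2 fold change of 0.38 ± 0.083 (SE, adjusted p = 0.00776). The call was lost with library size only (log2 fold change 0.24, adjusted p = 0.069) and in the 3 FPKM settings, and the adjusted p ran from 0.00193 to 0.069 over the alternatives. HIF1AN (ENSG00000166135, chromosome 10, 100529072 to 100559998, plus strand) had 150.6, 144.6 and 150.6 CPM in control and 160.5, 173.8 and 152.8 CPM in Sev libraries. The groups did not overlap, but the gap was narrow and the test did not pass (log2 fold change 0.13 ± 0.077, SE, adjusted p = 0.216), and the sign turned with library size only (−0.017) and on FPKM. The start of the gene overlaps 325 exon bases of NDUFB8 on the opposite strand, 2.33% of its own, and a strand setting for the counting is not given in the sources used here.

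CITED2 rose and KDM3A fell, although both are known as genes induced in hypoxia. CITED2 (ENSG00000164442, chromosome 6, 139371807 to 139374620, minus strand), which competes with the alpha subunits for CREBBP and EP300, had 96.4, 94.2 and 97.1 CPM in control and 174, 193 and 148 CPM in Sev libraries. Even the lowest Sev library was far above the 3 control libraries, which lay close together. CITED2 was 1.79-fold higher, with a log2 fold change of 0.84 ± 0.10 (SE, adjusted p = 0.000699), and between 0.67 and 0.93 over the alternatives, all called. KDM3A (ENSG00000115548, chromosome 2, 86440647 to 86492716, plus strand), a histone H3 demethylase, had 100.4, 112.7 and 106.1 CPM in control and 83.1, 90.5 and 80.7 CPM in Sev libraries. The groups were separate. KDM3A was 1.26-fold lower, with a log2 fold change of −0.33 ± 0.084 (SE, adjusted p = 0.0153). Its call was lost without control replicate 3 (adjusted p = 0.0511) or Sev replicate 1 (adjusted p = 0.0615), within a range from 0.00163 to 0.0615.

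**Figure D3:**
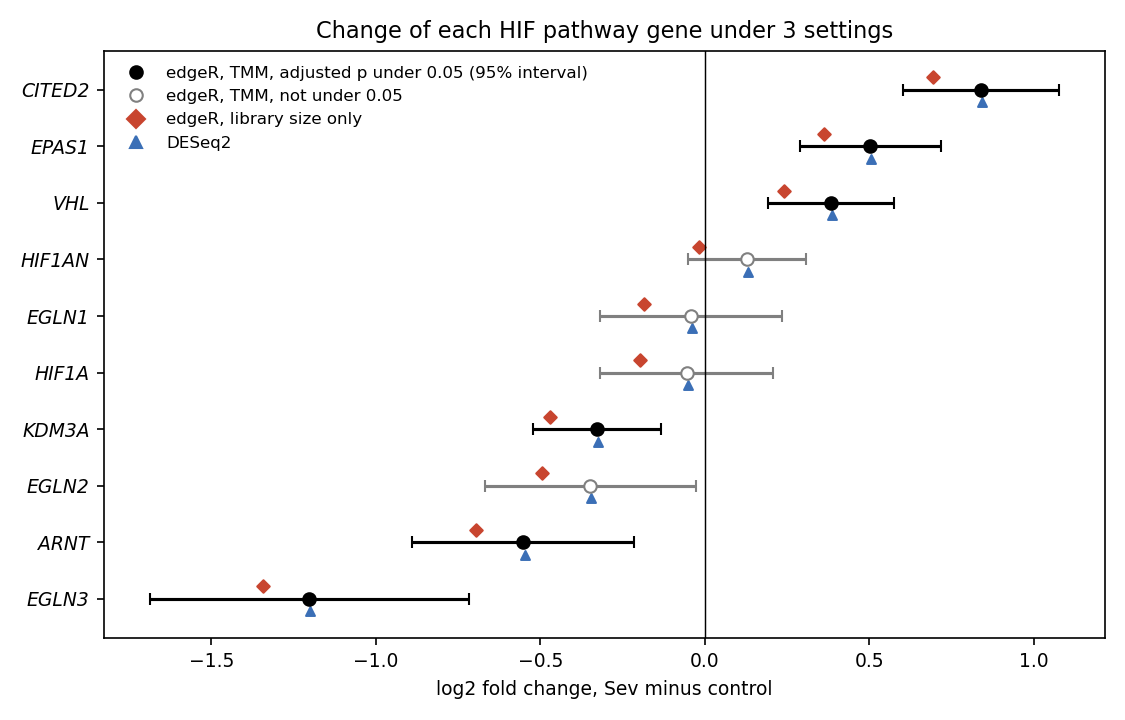
Log2 fold change of each gene, Sev minus control, from 3 libraries against 3. Circles with 95% intervals are edgeR with TMM (filled where the adjusted p is under 0.05), diamonds are edgeR with library size only and triangles are DESeq2. Library size only moves every gene to the left, which turns the sign of HIF1AN from 0.13 to −0.017.

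Per length, HIF1A was by far the most abundant of the 10 mRNAs, with 96.8 ± 13.3 FPKM in control and 84.3 ± 3.31 FPKM in Sev libraries (SD, n = 3). CITED2 was second in both groups (31.8 ± 1.03 and 51.3 ± 4.94 FPKM). In control libraries ARNT (12.3 FPKM), EGLN1 (11.2), HIF1AN (9.09), EGLN2 (7.18), KDM3A (6.80), VHL (6.43), EGLN3 (3.07) and EPAS1 (3.02 FPKM) followed. Neighbours whose control libraries overlapped were ARNT and EGLN1, EGLN2 and KDM3A, KDM3A and VHL, and EGLN3 and EPAS1. In Sev libraries ARNT stood in sixth place at 7.59 ± 1.23 FPKM, overlapping with VHL (7.60 ± 0.531 FPKM), and EGLN3 was last at 1.20 ± 0.195 FPKM, below EPAS1 (3.89 ± 0.359 FPKM) without overlap. The place of EGLN1 rests on the shorter length used for it. With GENCODE 29 exon length for every gene, EGLN1 lay below HIF1AN and above EGLN2 in control libraries, overlapping with both, and below ARNT in Sev libraries, overlapping with it. The other genes kept their order among themselves in both groups. For EGLN3, GENCODE 29 lists 19 exon blocks over a span that also encloses SPTSSA, so the level depends on which of those exons are used.

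Ratios of 2 genes within a library do not depend on library scaling. With 3 libraries against 3, the exact permutation test cannot give a two-sided p under 0.1, so none of the 6 ratios compared could pass. The ratio of EPAS1 to HIF1A counts was 0.0405, 0.0410 and 0.0538 in control and 0.0650, 0.0593 and 0.0724 in Sev libraries, 1.46-fold higher without overlap (exact permutation p = 0.1, adjusted over 6 ratios 0.2). EGLN1 counts exceeded EGLN3 counts 3.04, 2.42 and 2.69 times in control and 5.77, 5.53 and 6.80 times in Sev libraries, 2.22-fold higher without overlap (exact permutation p = 0.1, adjusted 0.2). Of all the ratios this was the one with the widest separation.

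The ratio of CITED2 to HIF1A was 0.159, 0.144 and 0.196 in control and 0.296, 0.334 and 0.282 in Sev libraries, 1.84-fold higher (exact permutation p = 0.1, adjusted 0.2). Every Sev library had more of the coactivator competitor's transcript per alpha subunit transcript than any control library. The ratios EGLN1 to EGLN2 (1.25-fold higher), EGLN3 to EGLN2 (1.78-fold lower) and HIF1AN to HIF1A (1.13-fold higher) overlapped between the groups, with exact permutation p-values of 0.2, 0.2 and 0.4 (adjusted 0.24, 0.24 and 0.4). Leaving out single libraries moved the log2 difference of EGLN1 to EGLN2 from 0.32 to between 0.16 (without control replicate 1) and 0.49 (without control replicate 2), and that of HIF1AN to HIF1A from 0.17 to between 0.070 (without control replicate 2) and 0.30 (without control replicate 3). In the EGLN3 to EGLN2 ratio the overlap came from control replicate 1 (0.338) and Sev replicate 2 (0.343). With the RAB4B-EGLN2 counts added to EGLN2, that ratio was 0.319 to 0.603 in control and 0.222 to 0.304 in Sev libraries, no longer overlapping (1.72-fold lower, exact permutation p = 0.1), while EGLN1 to EGLN2 still overlapped (1.29-fold higher).

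**Figure D4:**
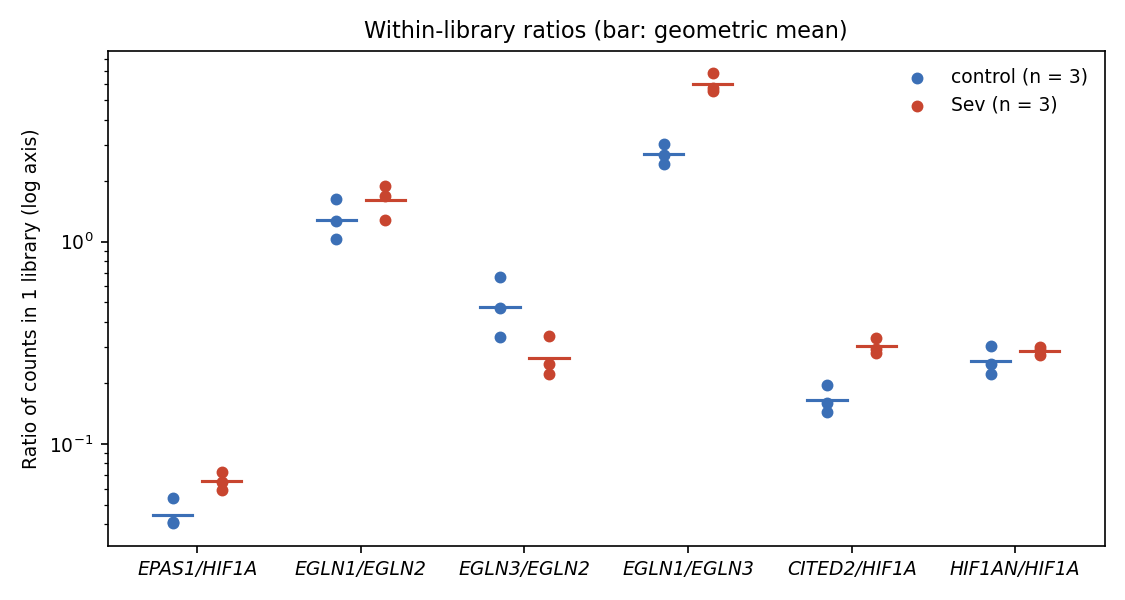
Ratio of the counts of 2 genes in the same library (log axis) for 6 pairs, with 3 control and 3 Sev libraries as points and geometric means as bars. The geometric means of control and Sev libraries are 2.70 and 6.01 for EGLN1/EGLN3, 0.165 and 0.303 for CITED2/HIF1A, and 0.0447 and 0.0654 for EPAS1/HIF1A, without overlap, while the other 3 pairs overlap with EGLN2 counted as deposited.

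The partners of HIF outside the 10 genes, a list of 23 paralogues, ubiquitin ligase subunits, coactivators and stability factors, were more often higher than lower. The list was chosen with earlier results of these data known. Of 22 tested, 12 were higher (54.5%, beside 22.1% of all features) and 2 were lower (9.09%, beside 21.5%), and 8 did not pass. The median log2 fold change was 0.33, and it was between 0.13 and 0.35 over the alternatives. With library size only, 5 of 22 were higher (22.7%, beside 17% of all features), and with limma on filtered log2(FPKM + 1), which changes the scale and the test as well, 4 of 20 were (20%, beside 16.4%). The share of higher partners was then near that of all features. It was also smaller without control replicate 1 (7 of 22, 31.8% beside 17.6%) and without control replicate 3 (5 of 22, 22.7% beside 16.8%). The coactivators that HIF recruits and CITED2 binds were both higher. EP300 went from 176 ± 4.9 to 269 ± 17.3 CPM (SD, n = 3), which is 0.61 ± 0.077 on the log2 scale (SE, adjusted p = 0.00077), and CREBBP from 106 ± 5.12 to 159 ± 19.3 CPM, which is 0.58 ± 0.10 on the log2 scale (SE, adjusted p = 0.00309). Both kept their calls in every alternative, library size only included, with CREBBP between 0.38 and 0.64.

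HSP90AB1, a chaperone that stabilizes HIF1A, rose by a log2 fold change of 0.56 (1012 ± 115 to 1493 ± 36.9 CPM, adjusted p = 0.00359). JMJD1C, a relative of KDM3A, had 0.50 (adjusted p = 0.015) and lost its call in 6 alternatives, library size only among them. CITED4, a relative of CITED2, had 9 to 12 counts in control and 24 to 57 counts in Sev libraries, and its log2 fold change of 1.92 ± 0.45 (SE, adjusted p = 0.0104) carries the counting error of those small numbers. Its call was lost on unfiltered log2(FPKM + 1) (0.40, adjusted p = 0.0693), and with 10 counts required in every library or with the FPKM filter it was not tested. The 2 lower partners were USP20, a deubiquitinase that acts on HIF1A (28.9 ± 1.99 to 19.5 ± 3.02 CPM, log2 fold change −0.57, adjusted p = 0.00998), and LIMD1, a scaffold for EGLN1 and VHL. LIMD1 had a log2 fold change of −0.33 (adjusted p = 0.0256), which was lost without control replicate 3, Sev replicate 1 or Sev replicate 2 (adjusted p up to 0.0946).

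Genes known to be induced through HIF were more often lower than higher in Sev-treated cells. They are a list of 50 written from general knowledge, chosen with earlier results of these data known. Of these 50, 48 were tested, of which 19 were lower (39.6%, beside 21.5% of all features), 7 were higher (14.6%, beside 22.1%) and 22 did not pass. The median log2 fold change was −0.28, and it was between −0.46 and −0.20 over the alternatives. The number of lower targets ran from 13 without control replicate 2 (27.1%, beside 17.8% of all features) or Sev replicate 3 (27.1%, beside 18.7%) to 24 with library size only (50%, beside 27.3%). Higher targets ran from 3 on unfiltered log2(FPKM + 1) (6%, beside 9.64%) to 8 with DESeq2 (16%, beside 13.4%). Without control replicate 3 they numbered 4 (8.33%, beside 16.8%). EPO and CXCR4, with at most 7 counts in a library, were not tested. The most changed of the lower genes were DDIT4, a brake on mTORC1 (204 ± 13.4 to 24.5 ± 4.36 CPM, log2 fold change −3.06), and MIR210HG, the host transcript of a hypoxia-induced microRNA (14.2 ± 4.26 to 4.01 ± 0.716 CPM, −1.82). INSIG2, which restrains sterol synthesis (−1.50), WSB1, a ubiquitin ligase subunit (−1.46), and the glucose transporter SLC2A3 (−1.41) came next, and these 5 genes had adjusted p-values up to 0.00112.

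The higher targets were led by HMOX1, heme oxygenase, which NRF2 also controls (13.3 ± 3.54 to 59.9 ± 13.8 CPM, log2 fold change 2.17, adjusted p = 0.000436). ADM, a vasodilator peptide, rose from 14.7 ± 0.858 to 30.8 ± 12 CPM (1.07, adjusted p = 0.0112), and the repressors BHLHE41 (0.89, adjusted p = 0.000345) and BHLHE40 (0.57, adjusted p = 0.00482) were higher. ANGPTL4 (0.64, adjusted p = 0.0183) lost its call in 6 alternatives. ADM lost its call on unfiltered log2(FPKM + 1) alone. In a split by function made after the values were seen, 40 of the 50 targets fell into 8 groups, and 10, among them DDIT4, MIR210HG, INSIG2, WSB1 and HMOX1, were in none. The groups are small, and over all features 22.1% were higher and 21.5% lower. Glucose transport, glycolytic enzymes and lactate export gave 1 higher, 3 lower and 7 genes that did not pass, with a median of 0.029. The control of glycolytic flux had 2 lower and 0 higher of 4 genes (median −0.72), glycogen metabolism 2 lower and 0 higher of 4 (median −0.31), mitochondrial genes 2 lower and 0 higher of 3 (median −0.34), and collagen modification 1 lower and 0 higher of 4 (median −0.16). Neither of the 2 genes of pH control passed. All 6 genes for transcription and chromatin passed, with 4 lower and 2 higher, and of the 5 tested secreted factors VEGFA was the single lower one (−0.98) beside 3 higher.

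**Figure D5:**
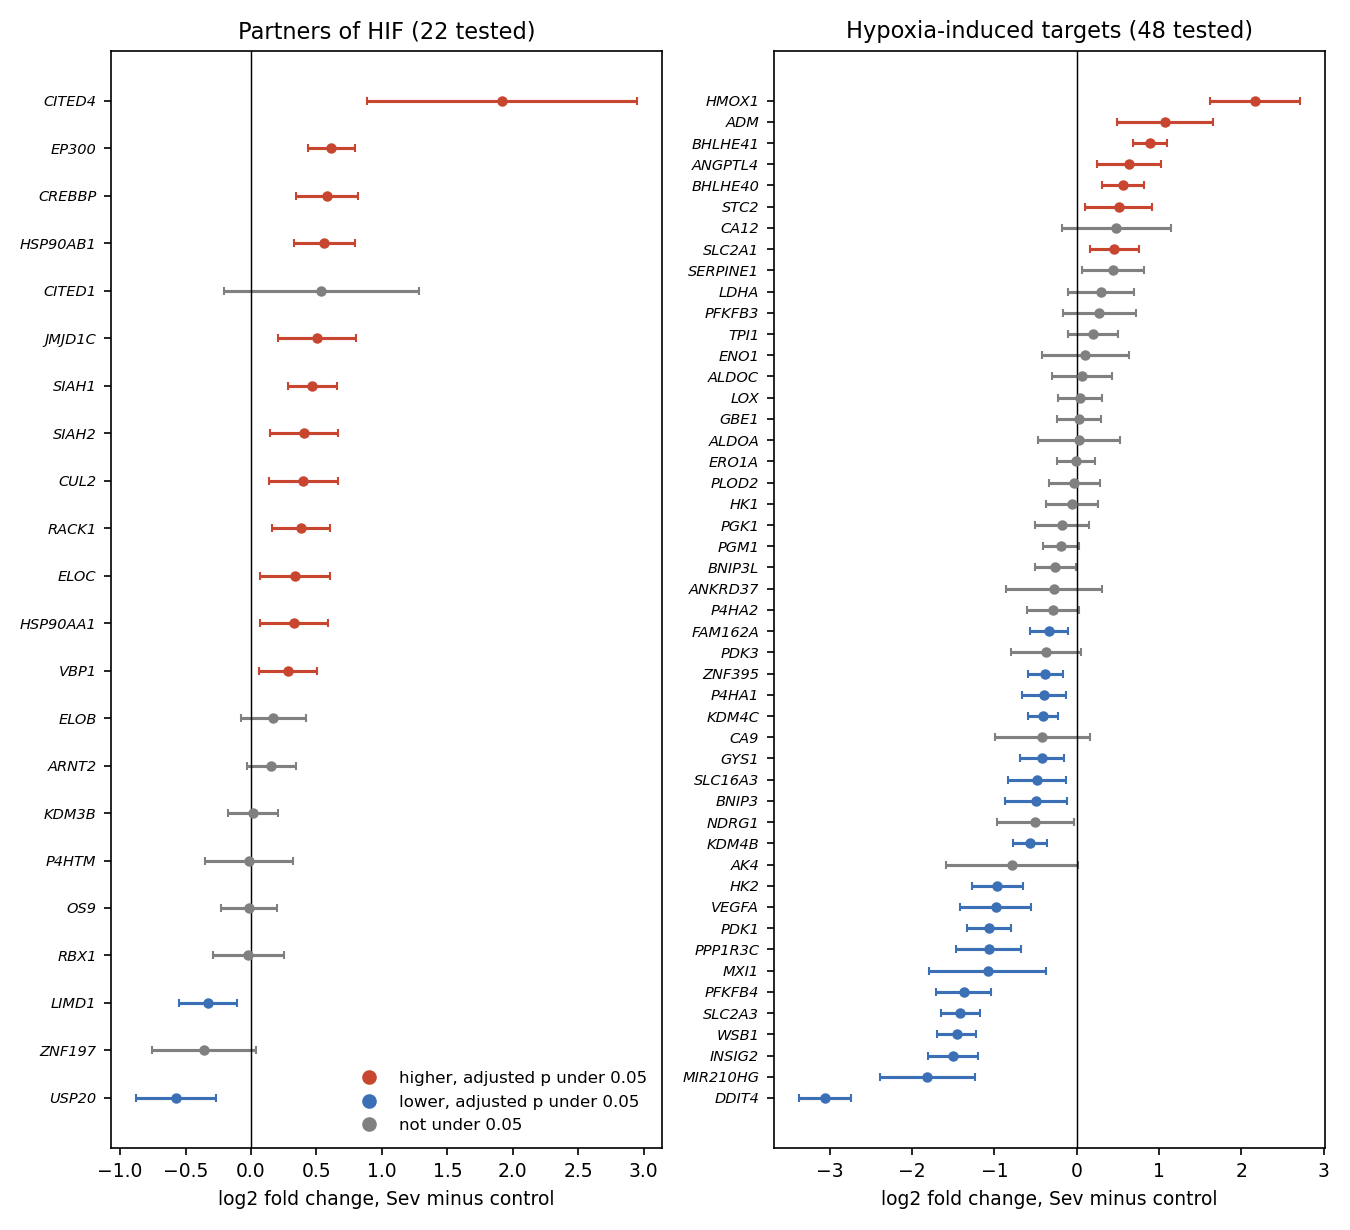
Log2 fold change, Sev minus control, with 95% intervals for the 22 tested partners of HIF (left) and the 48 tested hypoxia-induced targets (right), on different horizontal scales. Red marks higher and blue lower genes with an adjusted p under 0.05. Of the partners 12 are red and 2 blue, and of the targets 7 are red and 19 blue.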

How the data were processed

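The authors depleted ribosomal RNA, prepared strand-specific libraries and deposited 2 tables of the same features, raw counts and FPKM. The submitters' processing notes name bcl2fastq 2.19, featureCounts and the build hg18 without roles, and the aligner, annotation and strand setting are not given in the sources used here. In 11599 genes with over 200 counts per library, the deposited FPKM followed the counts divided by 1 factor per library and gene, within 1% for at least 98.6% of genes. Symbols were joined through Ensembl identifiers, and positions come from GENCODE 29 (GRCh38).

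The counts were filtered with filterByExpr, TMM-normalised and tested in edgeR 4.0.16 (R 4.3.3) by its quasi-likelihood F test, control against Sev without covariates, with Benjamini-Hochberg adjustment over all 27514 tested features. Standard errors were derived from the fold change and its F statistic. Ratios were tested by exact two-sided permutation in scipy 1.17.1. The scripts were tested on simulated data with 200 changed genes. The fit was repeated with other scaling (size factors of DESeq2, or library size only), without a filter or with 10 counts required everywhere, blocked on replicate number, leaving out single libraries, in DESeq2 1.42.0, and with limma 3.58.1 on log2(FPKM + 1) or log2(FPKM + 0.1), where genes needed 0.5 FPKM in 3 libraries, and once unfiltered. Adding the RAB4B-EGLN2 counts to EGLN2, and dividing counts by GENCODE 29 exon length, were chosen after seeing the data.

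The 10 genes and the lists were chosen with earlier results of these data known. Beside the 10 genes, the text names up to 5 partners and 5 targets in each direction with the largest change among those called, and the paralogues HIF3A, ARNT2 and P4HTM. VEGFA and the genes overlapping or opposite the 10 were named after their values were seen. Counting error limits genes with few counts, such as CITED4 and HIF1A-AS1, and 3 libraries per group limit all comparisons.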

Additional observations from a re-analysis of the deposited data

How the results depend on the processing

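Over 160 refits of single genes among the 10, 139 kept their direction and side of the threshold, 9 lost a call and 5 gained one. The remaining 7 reversed, none of them a called gene: HIF1A without control replicate 2 (0.024), EGLN1 without control replicate 2 (0.045) or Sev replicate 3 (0.015), and HIF1AN with library size only (−0.017), with limma on log2(FPKM + 1) filtered or not (−0.016) and on log2(FPKM + 0.1) (−0.018). P4HTM reversed with DESeq2's size factors (0.0013) and without control replicate 1 (0.15), Sev replicate 1 (0.017) or Sev replicate 3 (0.040). Leaving out single libraries took HIF1A from −0.17 to 0.024, EGLN1 from −0.15 to 0.045 and P4HTM from −0.11 to 0.15. The causes were not tested. Leaving out a library gave 1 to 3 lower genes of the 10 (1 without control replicate 3), 5 to 10 higher and 1 to 3 lower partners, a partner median from 0.29 to 0.33, and 4 to 7 higher targets (4 without control replicate 3). In these fits fewer of all features were called too, 16.7% to 20% higher and 15.6% to 19.3% lower. On log2(FPKM + 1), filtered or not, 0 of the 10 genes were lower by the study's rule. Higher partners numbered 5 with library size only (22.7%, beside 17% of all features) and 4 in each FPKM setting (20%, 20% and 17.4% unfiltered, beside 16.4%, 16.2% and 9.64% of all features). Their median was 0.19 with library size only, 0.14 on log2(FPKM + 1), 0.13 unfiltered and 0.16 on log2(FPKM + 0.1). Higher targets numbered 4, 4 and, unfiltered, 3 in these FPKM settings (8.51%, 8.51% and 6%, beside 16.4%, 16.2% and 9.64% of all features). The target median was −0.43 with library size only and −0.46 on log2(FPKM + 0.1). These settings lack the TMM factors.

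Between same-numbered libraries, deviations from the group means correlated at −0.063, −0.00017 and 0.066 over 15601 genes. Between libraries of different number they correlated at −0.12 to 0.11. The replicate numbers thus gave no visible pairing, and 3 libraries per group cannot settle whether it exists. With the replicate number as a block, the 10 genes again gave 3 higher and 3 lower, and calls over all features went from 12014 to 10249.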

Other observations

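The HIF1A locus also carries antisense genes, which were looked at after their values were seen. ENSG00000258667 (chromosome 14, 61715558 to 61751097, minus strand), named HIF1A-AS2 in GENCODE 29 and HIF1A-AS3 in a newer symbol table, runs opposite to HIF1A and shares 0 exon bases with it. It had 13.6, 13.7 and 14.7 CPM in the control libraries and 4.62, 5.24 and 4.72 CPM in the Sev libraries, without overlap. It was 2.88-fold lower, with a log2 fold change of −1.53 ± 0.13 (SE, adjusted p = 0.00016, edgeR), while HIF1A on the other strand did not pass the test. It was lower with an adjusted p under 0.05 in every alternative run, with adjusted p-values up to 0.00205. HIF1A-AS1 (ENSG00000258777, chromosome 14, 61681041 to 61695823, minus strand), whose exons share 117 bases with the first part of HIF1A, had 15 to 32 counts in control and 11 or 12 counts in Sev libraries, a log2 fold change of −0.90 with an adjusted p of 0.0766. It was called with 10 counts required in every library (adjusted p = 0.0463) and without control replicate 2 (adjusted p = 0.0474), and over the alternatives the log2 fold change ran from −1.12 to −0.35 and the adjusted p up to 0.256. The strand setting of the counting is not given in the sources used here, so reads of the shared bases cannot be assigned. ENSG00000258667 lies largely within the span of HIF1A, and whether its counts hold reads from HIF1A introns was not tested.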
